A study of Danio rerio with 20 samples.

Results

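The dissected brain of WT adult zebrafish was compared with whole WT embryos at 3 dpf (days post-fertilization). The comparison used the 3 WT adult brain arrays and the 3 WT 3 dpf arrays, chosen by their labels, out of 20 one-colour Agilent arrays, and took all 43603 probes of the deposited table. The fish were WT siblings from the line of the *rnaset2* AO127 mutant. The *rnaset2* gene encodes a lysosomal ribonuclease, and the adults were 1 year old. The remaining arrays were *rnaset2* mutants at the same ages (3 adult brain and 3 at 3 dpf) and embryos at 28 hpf (hours post-fertilization, 4 mutant and 4 WT arrays). In each genotype the 28 hpf arrays are numbered 1, 1.1, 2 and 3, and whether 1 and 1.1 come from the same sample is not stated. Embryos of a sample were pooled, whereas the sources used here do not state how many brains entered an adult sample. Age and tissue changed together between the groups, so a difference due to age and a difference due to tissue cannot be told apart. Nor can fewer cells of a type be told apart from less RNA per cell. Probe identifiers could not be matched to gene names from the tables at hand. Results are therefore by probe, several probes can measure the same gene, and neither the labelled tissue nor any pathway could be checked against marker genes.

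A whole zebrafish embryo at 3 dpf contains a brain, but also the other organs formed by then, among them skeletal muscle, heart, eye, skin, cartilage, notochord, blood and the early gut and liver. RNA of such an embryo is therefore a mixture in which the nervous system is one tissue among many, and many of its cells still divide. The adult brain holds mature neurons, myelinating oligodendrocytes, radial glia and microglia, together with the cells of its vessels and the blood in them. Genes of the contractile apparatus, the lens or the liver are textbook examples of genes used outside the brain, and genes of the mature synapse and of myelin are examples of those used within it.

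The deposited values are fluorescence intensities on a linear scale that the authors quantile normalized, a step that gives every array the same set of values and assigns them by rank. The median intensity was 257.7, the lowest 2.14 and the highest 589700. The same intensity on different arrays therefore means nearly the same rank. Background readings were not used, and whether a given dim probe exceeded background is unknown. Differences are given as log2 of intensity, brain minus 3 dpf, with limma standard errors from a fit of all 20 arrays. That fit takes a common spread of each probe for all groups. Standard errors, intervals and p-values therefore do not measure the spread of the compared groups alone. A probe was called at a Benjamini-Hochberg adjusted p under 0.05 over all probes. The sources do not say how samples of a group divide between clutches or animals, and the p-values reflect only the variation among the arrays.

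The groups stood far apart. Over the log2 intensities of all probes, Pearson's r of a brain and a 3 dpf array was between 0.798 and 0.816, against 0.985 to 0.989 between brain arrays and 0.994 to 0.995 between 3 dpf arrays. Probes are not independent replicates, so these values are a description. The SD of the log2 difference over all probes was 2.20 to 2.31 between the groups, 0.550 to 0.629 between brain arrays and 0.352 to 0.388 between 3 dpf arrays. Brain arrays were thus less alike than 3 dpf arrays. The median SD of a probe over the 3 arrays was 0.16 in brain and 0.099 at 3 dpf on the log2 scale, and the SD was larger in brain for 67.3% of probes. Among the brightest probes, the top quartile of mean intensity over all 20 arrays, it was larger in brain for 70.5%. Most of these 20 arrays are embryos, which favours probes brighter in embryos, and spread at equal brightness was not compared.

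One brain array lay nearer to the 3 dpf embryos than the others did. Brain replicate 1 had r = 0.816 with the mean of the 3 dpf arrays, against 0.802 and 0.800 for replicates 2 and 3. In it 325 probes were more than 4-fold above both other brains, against 127 and 99 in replicates 2 and 3. Of these 325 probes, 229 were also more than 4-fold brighter in the mean of the 3 dpf arrays than in both other brains. For replicates 2 and 3 the corresponding numbers were 30 and 33. For these probes the array raises the brain mean, and some values that rest on it are given below with and without it.

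Most of the array differed between adult brain and 3 dpf embryos. Of 43603 probes, 34785 were called (79.8%), of which 19523 were higher in brain (44.8% of all probes) and 15262 lower (35.0%). The brain and embryo arrays did not overlap for 96.6% of the probes called and for 79.9% of all probes, with brain higher for 44.9% and lower for 35.0% of all probes. The median absolute log2 difference of the called probes was 1.29, and the median standard error over all probes was 0.12. Over all probes the differences ran from -4.08 at the 5th percentile to 3.16 at the 95th. Their median was 0.19, so more probes lay above 0 than below.

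Rises were more numerous, and falls were larger. Quantile normalization makes the log2 differences nearly cancel over all probes. More numerous rises therefore go with larger falls, and these statements are not separate results. At least 2-fold apart were 11934 called probes higher and 9396 lower in brain, and at 4-fold the numbers were nearly equal, at 5342 and 5393. Beyond that the falls prevailed. At least 8-fold higher were 2447 probes and at least 8-fold lower 3441. At 32-fold there were 412 and 1471 probes, and at 64-fold 216 and 973. On log2 of the intensity plus 50, which shrinks differences near the lowest intensities, the 8-fold counts were 1230 and 1993 and the 32-fold counts 176 and 731, so falls exceeded rises on both scales. In 420 of the 3441 strong falls (12.2%) brain replicate 1 was more than 2-fold above both other brains, against 71 for replicate 2 and 70 for replicate 3. The corresponding share of all probes was not computed. Without brain replicate 1, 3476 probes were at least 8-fold lower and 2510 at least 8-fold higher.

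**Figure D1:**
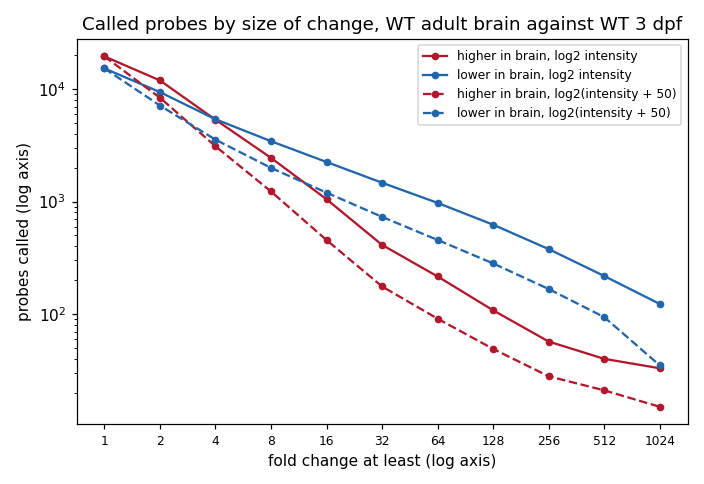
Number of called probes (vertical log axis) with a change of at least the fold on the horizontal log axis, WT adult brain against WT 3 dpf (3 arrays each), for rises (red) and falls (blue), on log2 intensity (solid) and on log2 of intensity plus 50 (dashed). On log2 intensity 2447 probes rose and 3441 fell by at least 8-fold, and the solid lines cross near 4-fold.

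Among calls of any size, the balance of rises and falls varied little with brightness. Brightness was taken here as the mean of the WT brain and WT 3 dpf group means on the log2 scale, so that both groups weighed equally. In the dimmest quartile (up to 48.9) 60.2% of probes were called, and rises made up 58.1% of the calls. In the brightest quartile 88.8% were called and rises made up 54.6%. The median difference was between 0.14 and 0.23 in all 4 quartiles. In each of them falls outnumbered rises among the 8-fold changes, with 588 higher and 828 lower in the dimmest and 513 and 553 in the brightest. The excess of falls at 8-fold was smallest in the brightest quartile. A mean over all 20 arrays, 14 of which are embryos, was not used for this split, because it sorts probes that are higher in embryos into the brighter quartiles.

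A fold against a very dim value depends on where the floor of the array lies, so probes that were bright on both sides were also counted. In 18128 probes the dimmer group had a mean at or above the array median. Of these, 4346 were called higher and 2991 lower by at least 2-fold, and 592 higher and 519 lower by at least 8-fold. At 32-fold the numbers were 52 and 195. With both sides bright, the excess of falls was therefore seen at 32-fold and not at 8-fold. Brain replicate 1 entered these counts, and they were not repeated without it.

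**Figure D2:**
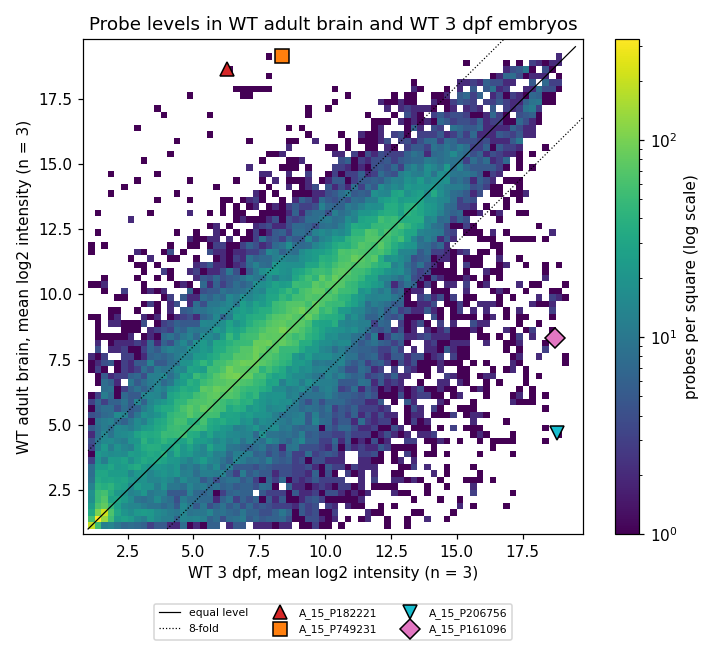
Mean log2 intensity of every probe at WT 3 dpf (horizontal) and in WT adult brain (vertical), 3 arrays each, as the number of probes per square (colour, log scale), with lines of equal level and of 8-fold difference. The 4 named probes are marked. The cloud below the lower 8-fold line reaches farther out than the one above the upper line, with 1471 falls and 412 rises of at least 32-fold among called probes.

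The level classes of most probes were nonetheless kept. With probes sorted into quartiles of intensity, 63.6% lay in the same quartile in brain and at 3 dpf, 30.3% moved to the neighbouring one and 6.15% moved farther. The fit also gave an interval for each difference. These intervals rest on the common spread of all groups and were not adjusted for the number of probes. The 95% interval of the difference lay wholly within 2-fold in either direction for 15772 probes (36.2%), of which 9521 were nevertheless called, with small differences. Of the 8818 probes not called, 6251 had an interval within 2-fold, and for the other 2567 the interval reached beyond 2-fold, so a difference of that size was not excluded for them.

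The brightest probes of the groups were often different ones. Of the 100 brightest probes in brain and the 100 brightest at 3 dpf, 22 were shared (22.0% of each list), and of the 1000 brightest 542 (54.2% of each list). The lists were not mirror images. The 78 probes among the 100 brightest in brain only had a median intensity of 358200 in brain and still 143500 at 3 dpf. The 78 among the 100 brightest at 3 dpf only had a median of 361700 there and of 3063 in brain. Of these 78, 12 were below the array median in brain, against 3 of the brain-only probes at 3 dpf. These lists were made from the values compared, so the medians are a description.

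Single probes showed the extremes. The rule for naming them took the largest change in each direction on log2 of intensity plus 50. It also took the largest change in each direction on log2 intensity among probes whose dimmer group lay at or above the array median. Only called probes with no overlap between groups were eligible. Their lack of overlap and their adjusted p under 0.05 therefore follow from the choice. On log2 intensity the largest rise without overlap was 13.6 and the largest fall -15.1, in probes not named here.

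The largest rise on log2 of intensity plus 50 was that of A_15_P182221. Its intensity was 401600, 414700 and 401600 on the 3 brain arrays and 89.7, 60.6 and 86.7 on the 3 dpf arrays. Every brain value lay far above every embryo value, and by group mean the probe was the 29th brightest in brain and the 29479th at 3 dpf. The log2 difference was 12.35 (standard error 0.85, adjusted p = 5.3e-10 from limma), and 11.63 on log2 of intensity plus 50. At 28 hpf the WT intensity was between 2.37 and 6.93, near the lowest value of the array. In mutants the brain values were 401600, 385400 and 418900, and those at 3 dpf were 3344, 3064 and 2892, far above the WT embryos of that age.

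Among probes bright in both groups, A_15_P749231 rose most. Its intensity was 564900, 564900 and 589700 in brain and 329, 282 and 383 at 3 dpf. It was the second brightest of all probes in WT brain by group mean, whereas at 3 dpf it lay close to the array median. The log2 difference was 10.77 (standard error 0.33, adjusted p = 1.2e-14 from limma). In the WT embryos at 28 hpf it was between 844 and 889, above all 3 dpf WT values. In mutants it was 564900, 548200 and 548200 in brain and 4841, 5503 and 5356 at 3 dpf, so as for A_15_P182221 the mutant embryos at 3 dpf were the brighter ones.

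The largest fall on log2 of intensity plus 50 was that of A_15_P206756. Its intensity was 38.6, 25.2 and 17.6 in brain and 456500, 466800 and 441600 at 3 dpf. The probe was the 15th brightest at 3 dpf and the 35421st in brain. The log2 difference was -14.11 (standard error 0.54, adjusted p = 2.2e-13 from limma), and -12.53 on log2 of intensity plus 50. It was already bright at 28 hpf, at 306100 to 318200 in WT embryos. In mutants it was 523.7, 64.5 and 62.1 in brain and 342300 to 398700 at 3 dpf.

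A_15_P161096 had the largest fall among probes bright on both sides, and its brain value rests on a single array. The brain intensities were 4358, 95.3 and 82.7 for replicates 1, 2 and 3, and those at 3 dpf were 414700, 434700 and 437900. The log2 difference was -10.37 (standard error 0.95, adjusted p = 2.5e-08 from limma). In a fit of only the 6 arrays compared, the limma adjusted p was 0.0013. Without brain replicate 1 it was -12.24, and the probe would then lie below the array median in brain. WT embryos at 28 hpf had 280500 to 314900. The mutant brains, at 660.7, 463.6 and 452.4, lay between brain replicate 1 and the other WT brains.

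**Figure D3:**
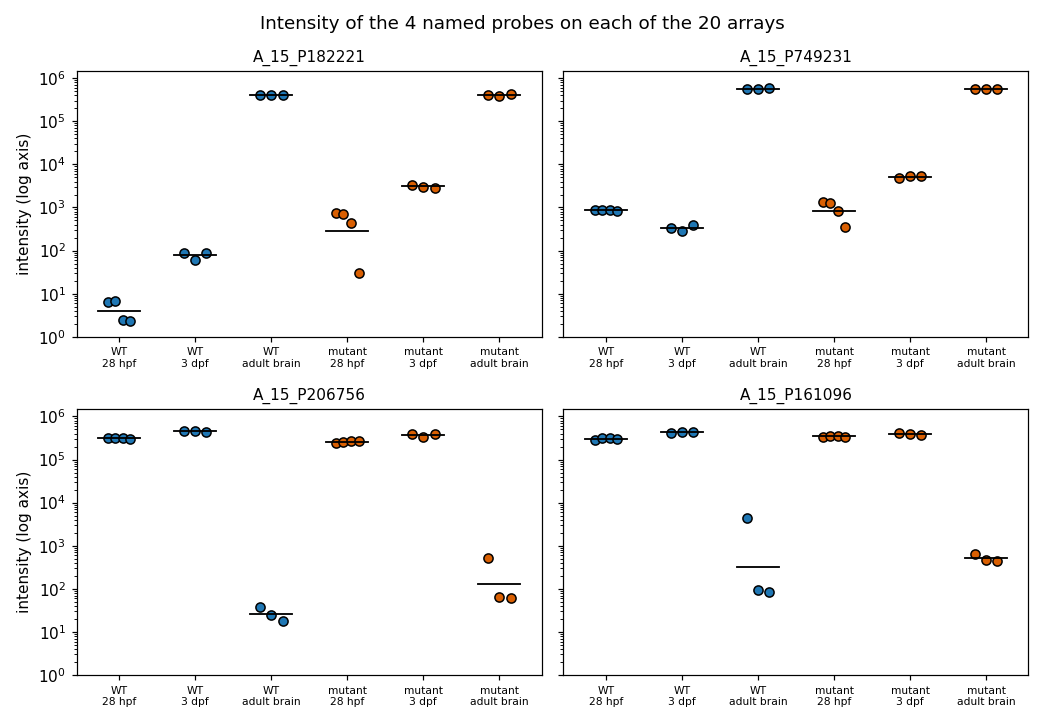
Intensity (log axis) of the 4 named probes on each of the 20 arrays by group, WT in blue and mutant in orange, with bars at the mean of the log2 values. A_15_P182221 and A_15_P749231 were high in all 6 brains and A_15_P206756 and A_15_P161096 in all 14 embryo samples, with WT brain replicate 1 apart from the other brains for A_15_P161096.

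Probes that went from one end of the scale to the other were counted on every array. In the top quartile on all 3 brain arrays (above 1619) and in the bottom quartile on all 3 embryo arrays (below 45.0) were 61 probes. The opposite pattern, bright in embryos and dim in brain, was found for 247 probes. Without brain replicate 1 these numbers were 66 and 364, so that array alone kept 117 probes out of the second class. The 61 probes had a median intensity of 3673 in brain and 17.03 at 3 dpf, and the 247 probes 4614 at 3 dpf and 14.6 in brain.

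Levels at 28 hpf, which did not enter the choice of these probes, differed between the classes. For 28 hpf and for mutants the quartile was taken from the group mean, a looser rule than every array. Of the 61 probes bright in brain, 56 (91.8%) lay in the bottom quartile in WT embryos at 28 hpf and none in the top quartile, where 25.2% and 25.0% of all probes lay. Their median intensity there was 14.4. Of the 247 probes bright at 3 dpf, 211 (85.4%) lay in the top quartile at 28 hpf and 3 in the bottom quartile, with a median of 4317. The first class was dim at both embryonic ages, and the second was bright at both. The classes were chosen by level in whole embryos at 3 dpf, so their levels in whole embryos at 28 hpf can partly follow from that choice. The shares among all probes equally dim or bright at 3 dpf were not computed.

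By group mean, the mutant brains mostly fell in the same classes. Of the 61 probes, 57 were in the top quartile in mutant brain, with a median intensity of 5106, and all 61 were called higher in mutant brain than at mutant 3 dpf, against 48.7% of all probes. Of the 247 probes, 221 were in the bottom quartile in mutant brain, with a median of 15.7, and all 247 were called lower, against 31.6% of all probes. The brain minus 3 dpf difference itself differed between genotypes for 65.6% of the 61 and 34% of the 247 probes, against 44.2% of all probes. That test includes the WT values by which the classes were chosen, so these shares are a description only. At 3 dpf the 61 probes had a median of 51.4 in mutants, above the 17.03 of WT embryos, but they were chosen for low WT values at that age.

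**Figure D4:**
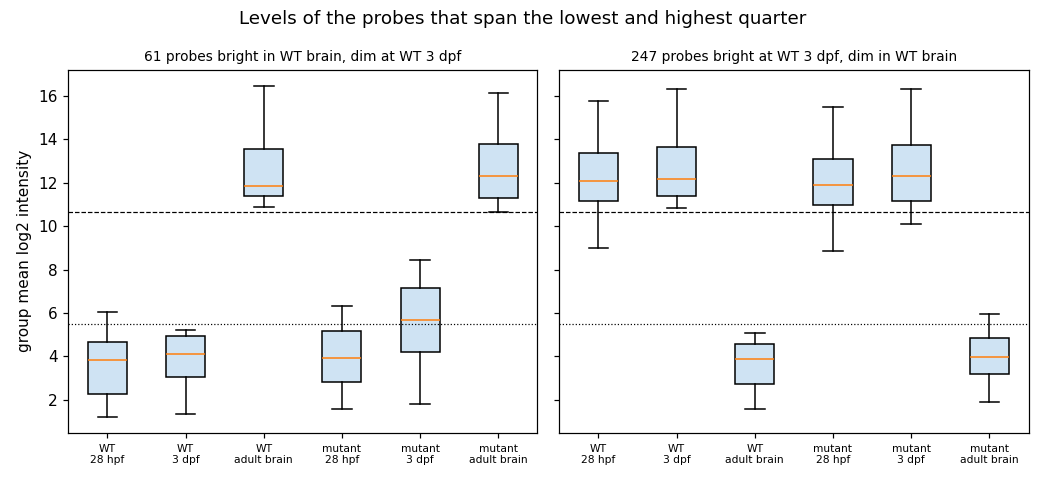
Group mean log2 intensity of the 61 probes bright in WT brain and dim at WT 3 dpf (left) and of the 247 with the opposite pattern (right), in all 6 groups. Boxes give the quartiles with the median, whiskers the 5th and 95th percentiles, and lines the limits of the bottom (dotted) and top (dashed) quartile of intensity. The WT 28 hpf medians, 14.4 and 4317 in intensity, lie with the embryos at 3 dpf.

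The same comparison was available on arrays that the WT comparison did not use. In mutants 35029 probes (80.3%) differed between adult brain and 3 dpf, 21242 higher and 13787 lower in brain. Of the 34785 probes called in WT, 29224 (84.0%) were called in the same direction in mutants, 1425 (4.1%) in the opposite direction, and 4136 (11.9%) were not called. By direction, 88.6% of the WT rises were called as rises in mutants, where 48.7% of all probes were, and 78.2% of the WT falls as falls, where 31.6% of all probes were. The mutant and WT arrays were normalized together, and the mutants carry the mutation. Over all probes 44.2% (19261) had a difference between brain and 3 dpf that itself differed between genotypes, and of the 34785 WT calls 48.1% (16718) did. The WT differences behind these calls are part of that test, so the 48.1% is a description only.

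Large differences recurred more often than small ones. Among WT calls under 2-fold 71.1% were called in the same direction in mutants, among those of at least 2-fold 92.2%, and among those of at least 8-fold 98.3%. Of the falls of at least 8-fold 99.2% recurred and of such rises 97.0%. In these shares a mutant call of any size counted. At a fixed threshold a larger difference passes more readily, so part of this gradient can follow from the way recurrence was counted. With at least 2-fold required in mutants too, 77.3% of the WT calls of at least 2-fold recurred. Across all probes Pearson's r of the WT and mutant log2 differences was 0.892 and Spearman's rho 0.870, and the slope of the mutant on the WT difference was 0.86. For the 2447 rises of at least 8-fold the median log2 difference was 3.81 in WT and 2.92 in mutants. The 3441 falls had a median absolute difference of 4.64 in WT and a median fall of 4.44 in mutants. These probes were chosen by their WT values, which favours a larger WT difference.

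**Figure D5:**
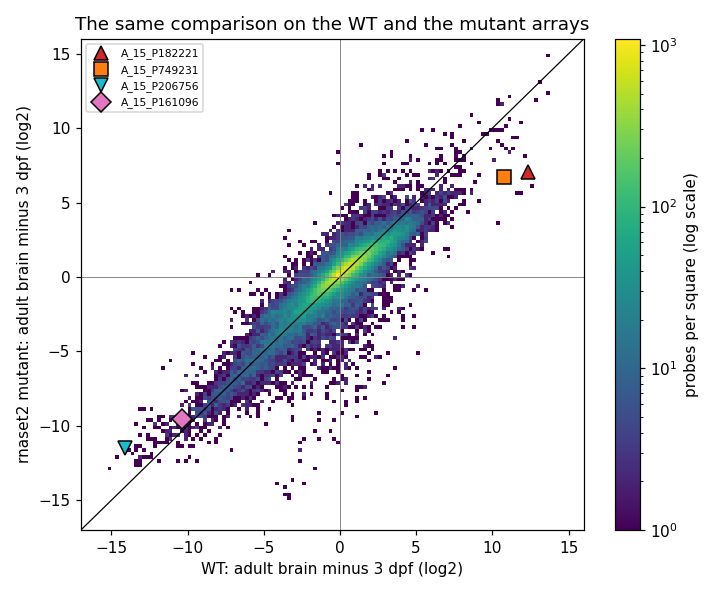
Log2 difference, adult brain minus 3 dpf, on the WT arrays (horizontal) and the *rnaset2* mutant arrays (vertical), as the number of probes per square (colour, log scale), with the line of equal difference and the 4 named probes. Pearson's r over all probes was 0.892, and most of the cloud lies in the quadrants where both differences have the same sign.

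A few strong differences ran against the mutant arrays. Of the 2447 rises of at least 8-fold, 29 were called lower in mutant brain than at mutant 3 dpf. Their median intensity was 500 in WT brain and 41.8 at WT 3 dpf, and 72.2 in mutant brain and 300.1 at mutant 3 dpf. Of the 3441 falls of at least 8-fold, 6 were called higher in mutant brain. These probes were chosen for this pattern.

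The direction of change between 28 hpf and 3 dpf was taken from the mutant arrays, so that no array entered the differences of both comparisons. The spread of each probe was common to both. From 28 hpf to 3 dpf 28.5% of all probes rose and 42.0% fell in mutants, out of 70.5% called. Of the 2447 probes at least 8-fold higher in WT adult brain, 71.8% had risen from 28 hpf to 3 dpf and 7.68% had fallen, with a median log2 change of 1.45. This change in mutants need not be that of WT embryos. For 68.9% of these probes the brain minus 3 dpf difference differed between genotypes. It did so for 50.5% of those at least 8-fold lower and for 44.2% of all probes. The WT differences used to choose the 8-fold probes are part of that test, so their shares are a description only. The rises had a median intensity at 3 dpf of 107.6 in mutants and 51.0 in WT, though they were chosen by WT values. Of the 3441 probes at least 8-fold lower in WT adult brain, 29.8% had risen and 43.3% had fallen, shares close to those of all probes, with a median log2 change of -0.28 against -0.18 over all probes. Among the called probes of any size, 41.6% of those higher in brain had risen and 60.0% of those lower in brain had fallen.

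The WT levels of these probes are set beside this. Those at 28 hpf were not used to choose the probes, but those at 3 dpf, also of whole embryos, were. The probes at least 8-fold higher in brain had a median intensity of 31.1 at 28 hpf, 51.0 at 3 dpf and 964 in adult brain. Those at least 8-fold lower had 1141 at 28 hpf, 1097 at 3 dpf and 29.6 in adult brain. Between adult brain and 28 hpf 36001 probes (82.6%) were called. That comparison uses the same brain arrays, so it is given for its values only. For the 61 probes bright in brain the median log2 difference was 8.94 against 28 hpf and 8.09 against 3 dpf, and for the 247 bright in embryos -8.59 and -8.93.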

How the data were processed

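RNA of pooled dechorionated embryos and of dissected whole brains was hybridized to one-colour (Cy3) Agilent 4x44K zebrafish arrays. The deposited intensities were quantile normalized by the authors and lie on a linear scale. The software of the scanner, any background correction and the slides used are not stated in the labels or the study's methods, and array batches were not tested. The authors re-annotated probes for their own analysis, which was not repeated. Intensities were log2-transformed and fitted with a mean for each of 6 groups on all 20 arrays in limma 3.58.1 under R 4.3.3 (14 residual and 1.79 prior degrees of freedom). Two-sided p-values were adjusted by Benjamini-Hochberg across 43603 probes, with 0.05 as the threshold. Intervals are 95%. The fit was tested on simulated data with independent noise, a common spread of each probe in all groups and far fewer changed probes than here. That test checks the calculation only. The number of arrays limits the precision. Probes carry no gene names here, so gene lists were not used, and the rule given in the report names 2 rising and 2 falling probes. Comparisons, classes and lists were chosen with earlier results of these data known. Same-numbered brain and 3 dpf arrays had correlations of deviations from -0.051 to 0.038, so the numbers do not pair them. The youngest stage is labelled 28 hpf in one field and 28 dpf in another, and 28 hpf was used. The alternatives tried are given in the closing section.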

Additional observations from a re-analysis of the deposited data

Results flagged for a closer look

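The difference between adult brain and 3 dpf was itself different between mutants and WT siblings for 19261 probes by the limma test of that difference, with a median absolute size of 0.76 on the log2 scale, and 6917 of them differed by at least 2-fold. For A_15_P182221 the mutant minus WT difference was -5.33 on the log2 scale (limma, adjusted p = 0.0018), and every mutant array at 3 dpf lay above every WT array at 3 dpf. For A_15_P749231 it was -4.04 (adjusted p = 3.9e-06 from limma), with the same arrangement of arrays. For A_15_P206756 it was 2.58 (adjusted p = 0.012 from limma), with 3 of 3 mutant brains above the 3 WT brains. Mutant brain replicate 1, at 523.7, lay far above the other mutant brains, at 64.5 and 62.1. The WT brains, at 17.6 to 38.6, were in the bottom quartile of intensity, and the difference without that mutant array was not computed. For A_15_P161096 the mutant minus WT difference was 0.80 (adjusted p = 0.66 from limma) and did not pass the threshold. The 4 probes were chosen for extreme WT differences, which favours a smaller difference in mutants, the sign found for all 4. Whether that choice accounts for the differences was not tested. At 28 hpf, a stage not used for the choice, the mean intensity of A_15_P182221 was 478.7 (SD 325) in mutants and 4.56 in WT. That of A_15_P749231 was 953.8 (SD 459) in mutants and 867.3 (SD 22) in WT, and the mutant arrays, from 347.1 to 1315, lay on both sides of the WT arrays.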

How the results depend on the processing

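Of the alternatives to the count of called probes, each left between 32065 and 34819 probes called, except the restriction to the upper 50% of mean intensity, which tests fewer probes, and the 2-fold threshold. In no setting did a probe called both there and in the main setting change direction, but several settings leave the differences as they are. With the upper 50% only, 19324 probes were called, 9825 higher and 9499 lower in brain. In mutants that filter gave 18939 calls, 10547 higher and 8392 lower. It gave 17346 calls for mutant 3 dpf against mutant 28 hpf, 19790 for WT brain against 28 hpf and 11902 for the difference between genotypes. With a change of at least 2-fold required, 21330 probes were called, 11934 higher and 9396 lower, and 6917 for the difference between genotypes. With 2-fold required in both genotypes, 77.3% of such WT calls recurred in mutants. Changes of at least 8-fold, a count added after seeing the data, numbered 1230 rises and 1993 falls on log2 of intensity plus 50, and 871 and 1975 in the upper 50%. That filter uses the mean of all 20 arrays, 14 of them embryos, and so keeps more probes that are higher in embryos. The median difference over all probes was 0.19 on log2 intensity, 0.08 on log2 of intensity plus 50 and 0.16 after centring on the brighter probes.

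Leaving out each of the 6 arrays gave 33718 to 34353 called probes, 18863 to 19415 higher and 14811 to 15074 lower. It gave 84.5% to 84.9% of WT calls recurring in mutants, 61 to 66 probes bright in brain only, and 250 to 364 bright at 3 dpf only, the highest without brain replicate 1. With the 28 hpf arrays 1 and 1.1 averaged within each genotype and counted once, an alternative added after seeing the data (18 samples, 12 residual degrees of freedom), 34572 probes were called, 29687 for mutant 3 dpf against 28 hpf, 35485 for WT brain against 28 hpf and 18536 for the difference between genotypes. The SD of the log2 difference between 1 and 1.1 was 0.389 in WT and 0.325 in mutants, against 0.392 to 0.457 and 0.337 to 0.398 for the other pairs at 28 hpf. With a replicate block 32250 probes were called, and no named probe lost its call. Over the alternatives their highest limma adjusted p was 0.0054 for A_15_P161096 and 0.00013 for the others. The called share was 60.2% in the dimmest quartile against 88.8% in the brightest, and without background readings the lower limit of detection is unknown.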
